A study of Mus musculus with 4 samples.

Results

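A set of 8 genes of the NF-κB pathway was followed through single-nucleus RNA profiles of young and aged mouse liver. They are the subunit genes Nfkb1, Nfkb2, Rela and Relb and the feedback and inhibitor genes Nfkbia, Nfkbiz, Tnfaip3 and Birc3, chosen by symbol as 8 of the 32285 genes in the count matrices. All 8 symbols were found, each under 1 gene identifier. The livers came from male wild-type mice of the inbred laboratory strain C57BL6/J, with 2 libraries from mice aged 2 months (young replicates 1 and 2) and 2 from mice aged 30 months (aged replicates 1 and 2). No other treatment or allele is given, so age is the only labelled difference between the groups. The labels call the libraries replicates without saying that each came from its own animal, so the tests can speak only of variation among these libraries, and that variation may be technical. Nuclei were taken from frozen tissue and run on droplets with a 3′ kit. The values are counts of UMIs (unique molecular identifiers, 1 for each captured RNA molecule).

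NF-κB is a family of transcription factors that work as pairs of subunits. In resting cells, inhibitor proteins hold the pairs in the cytoplasm. Signals from cytokine and pattern receptors activate a kinase complex that has the inhibitor destroyed, and the pair then enters the nucleus. Rela and Nfkb1 encode the best known pair of the fast, canonical branch, and Relb and Nfkb2 that of the slower, non-canonical branch. Nfkbia encodes the inhibitor IκBα, Tnfaip3 an enzyme that edits ubiquitin chains on signalling proteins and thereby dampens the pathway, and Birc3 a ubiquitin ligase that promotes cell survival. These last 3 genes are known NF-κB targets, so they report on the pathway, and the products of Nfkbia and Tnfaip3 also restrain it. Nfkbiz encodes a nuclear protein of the inhibitor family that helps to switch on a second wave of inflammatory genes. In liver the pathway is best known for acute phase gene induction and protection from death in hepatocytes, and for cytokine production in resident macrophages.

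RefSeq promoters (GRCm38.p6, 250 bases before each annotated start) were at hand for 5 of the 8 genes, Nfkb2, Rela, Nfkbia, Tnfaip3 and Birc3, with 8 promoters in all. A common short form of the NF-κB binding motif, GGG, 3 free bases and TTCC (on the opposite strand GGAA, 3 free bases and CCC, both searched), occurred upstream of 3 of these 5 genes, Nfkb2, Nfkbia and Tnfaip3. The same letters occur in 1527 of 32851 such promoters (4.65%) and in at least 1 promoter of 1434 of 27025 genes (5.31%). A match is a description of the letters and not a measured binding site. The matches before the first listed start of each gene are shown with 10 bases on each side, 5′ to 3′ on the strand of the gene, with the match in capitals, because they let the spacer between the fixed letters be compared. The first 2 lines lie 38 and 11 bases before the first Nfkb2 start (chr19:46304689-46304718 and chr19:46304716-46304745, plus strand), the third line 29 bases before the Nfkbia start (chr12:55492657-55492686, minus strand) and the fourth line 12 bases before the first Tnfaip3 start (chr10:19015403-19015432, minus strand).
Nfkb2 far match: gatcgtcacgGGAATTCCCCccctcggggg
Nfkb2 near match: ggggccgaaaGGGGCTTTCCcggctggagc
Nfkbia match: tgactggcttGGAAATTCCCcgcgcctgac
Tnfaip3 match: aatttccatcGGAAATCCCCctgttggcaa

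Nfkbia and Birc3 passed a test along the liver lobule, and of these only Nfkbia has a match. No link between the match and that test is drawn. The 250 upstream bases of Nfkbia are given whole (chr12:55492648-55492897, minus strand, GRCm38.p6, match in capitals). They end 1 base before the annotated gene.
Nfkbia upstream: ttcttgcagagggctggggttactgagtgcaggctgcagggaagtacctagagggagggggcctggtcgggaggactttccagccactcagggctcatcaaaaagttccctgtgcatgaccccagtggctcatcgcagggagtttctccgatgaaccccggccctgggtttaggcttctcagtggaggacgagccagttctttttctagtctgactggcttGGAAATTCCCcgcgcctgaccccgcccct

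In GENCODE vM21, an annotation of the mm10 build that the count files use, the genes lie on 7 chromosomes. Nfkb2 (chr19:46304320-46312385, plus strand) and Rela (chr19:5637483-5648130, plus strand) share chromosome 19. Nfkb1 spans 106893 bases (chr3:135584655-135691547, minus strand), whereas Nfkbia spans 3238 bases (chr12:55489410-55492647, minus strand). The others are Relb (chr7:19606217-19629438, minus strand), Nfkbiz (chr16:55811375-55838899, minus strand), Tnfaip3 (chr10:19000910-19015657, minus strand) and Birc3 (chr9:7848699-7873186, minus strand). Nfkb2 overlaps Psd and AC114539.1 on the opposite strand, and Nfkb1 overlaps the short model Gm43430 on its own strand. Whether the counting used strand is not given in the sources used here, so the Nfkb2 values are uncertain to that extent. Strand cannot separate Nfkb1 from Gm43430, and the handling of reads in that overlap is not given, so the Nfkb1 values are uncertain too. Nuclear RNA is partly unspliced, and levels are not compared between genes of such different length.

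Filtering left 1935 and 12219 young nuclei and 7216 and 11892 aged nuclei in replicates 1 and 2, with medians of 3177, 920, 1875 and 2272 UMIs per nucleus. The deposited totals ran from 11799751 to 54777101 UMIs per library. Between 2 and 43 barcodes were shared by any pair of libraries, at most 0.499% of the smaller one. Clustering gave 8 cell classes, named "-like" from marker genes, of which hepatocyte-like nuclei were the largest (1615, 9685, 5642 and 8713 nuclei). All 10 hepatocyte markers were detected in them. Stellate/fibroblast-like (170, 466, 274 and 1030 nuclei) and endothelial-like nuclei (25, 111, 249 and 360) were the only other classes with at least 20 nuclei in every library, the minimum for a test between ages. The 12 abundant hepatocyte transcripts summed to between 17365 and 23207 CPM (UMIs of the genes scaled to a fixed UMI total) in hepatocyte-like nuclei, and still to between 6576 and 15938 CPM in stellate/fibroblast-like and between 10540 and 18607 CPM in endothelial-like nuclei. Hepatocyte RNA was thus present in all classes. In stellate/fibroblast-like, endothelial-like and macrophage-like nuclei (17876 CPM) its sum was highest in young replicate 2. Between 3.05% and 12.7% of nuclei could not be given a class.

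The NF-κB genes first separated by cell class. Levels across classes are given as unscaled CPM (the UMIs of a gene scaled to the UMI total of the class in a library), over libraries with at least 20 nuclei of the class. They are a description without a test, since the classes were built from the same nuclei. Nfkb1, the subunit gene with the most UMIs, was highest in B-like nuclei (322 and 694 CPM, the 2 aged libraries), followed by T/NK-like (252 and 438) and macrophage-like nuclei (200 to 332, 3 libraries). In hepatocyte-like nuclei it was 104 ± 14.2 CPM (SD, n = 4), with 83.8 to 115 CPM. This lay below the range of mesothelial-like nuclei, the next class up (120 to 209 CPM, 3 libraries), while every other pair of neighbours in the order overlapped. One of the 4 endothelial-like values, 85.8 CPM in young replicate 1, fell within the hepatocyte range.

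Relb, which acts with the Nfkb2 product, showed the widest contrast. In hepatocyte-like nuclei the young libraries held 1.75 and 2.62 CPM and the aged ones 2.45 and 3.76 CPM. Macrophage-like nuclei held 28.5 to 36.3 CPM (3 libraries), between 9.64 and 13.9 times the hepatocyte value of the same library, and stellate/fibroblast-like nuclei 11.9 to 76.0 CPM, between 6.79 and 31.0 times. B-like nuclei had 60.7 and 161 CPM, from 7 and 10 UMIs. Every neighbouring pair of classes in the order of Relb overlapped in range, and endothelial-, T/NK- and mesothelial-like nuclei each included a library with 0 UMIs.

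Tnfaip3 and Birc3, both NF-κB target genes, were higher in macrophage- and B-like than in hepatocyte-like nuclei, while several other classes overlapped with hepatocytes. Tnfaip3 had 1.20 to 3.42 CPM there, against 27.1 and 65.7 CPM in T/NK-like, 32.2 and 52.0 CPM in B-like and 7.13 to 34.1 CPM in macrophage-like nuclei. The T/NK- and B-like values rest on 2 to 7 UMIs per library, and the 7.13 CPM of macrophage-like nuclei, in young replicate 2, on 1 UMI. Birc3 had 26.6 to 44.6 CPM in hepatocyte-like nuclei, 99.8 to 175 CPM in macrophage-like and 173 and 241 CPM in B-like nuclei. In stellate/fibroblast-like nuclei Birc3 exceeded the hepatocyte value of the same library in 4 of 4 libraries, by 1.56 to 4.93 times. For Birc3 the cholangiocyte-like mean (30.9 CPM, range 0 to 47.4) was below the hepatocyte-like one (37.5 CPM), and T/NK-like (21.9 and 112 CPM) and endothelial-like values (33.5 to 172 CPM) spanned the hepatocyte range. For Tnfaip3 the stellate/fibroblast-like (2.97 to 6.61 CPM), endothelial-like (0 to 11.7 CPM), cholangiocyte-like (0 to 15.6 CPM) and mesothelial-like ranges (0 to 17.1 CPM) overlapped with hepatocytes. Within libraries, stellate/fibroblast-like Tnfaip3 was above the hepatocyte value in 4 of 4 (1.31 to 4.94 times), on 1 to 7 UMIs per library.

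By their ranges over young and aged libraries together, Rela, Nfkbia, Nfkbiz and Nfkb2 did not separate the classes. Rela ranged from 26.6 to 58.2 CPM in hepatocyte-like nuclei, and the ranges of all neighbouring classes overlapped around it. Within libraries, Rela was above the hepatocyte value in 4 of 4 stellate/fibroblast-like sums (1.05 to 1.76 times) and in 0 of 2 B-like ones. Nfkbia had its highest mean in mesothelial-like nuclei (125 ± 54.9 CPM, SD, n = 3) and its lowest in T/NK-like nuclei (15.5 and 43.8 CPM), with hepatocyte-like nuclei at 28.3 to 68.2 CPM. Nfkbiz ran from 16.4 to 104 CPM in hepatocyte-like nuclei, and overlapped with every other class, endothelial-like nuclei being lowest (0 to 66.5 CPM). Nfkb2 was at the edge of detection, with 205 UMIs in all hepatocyte-like nuclei and between 1 and 9 UMIs in each other class.

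**Figure D1:**
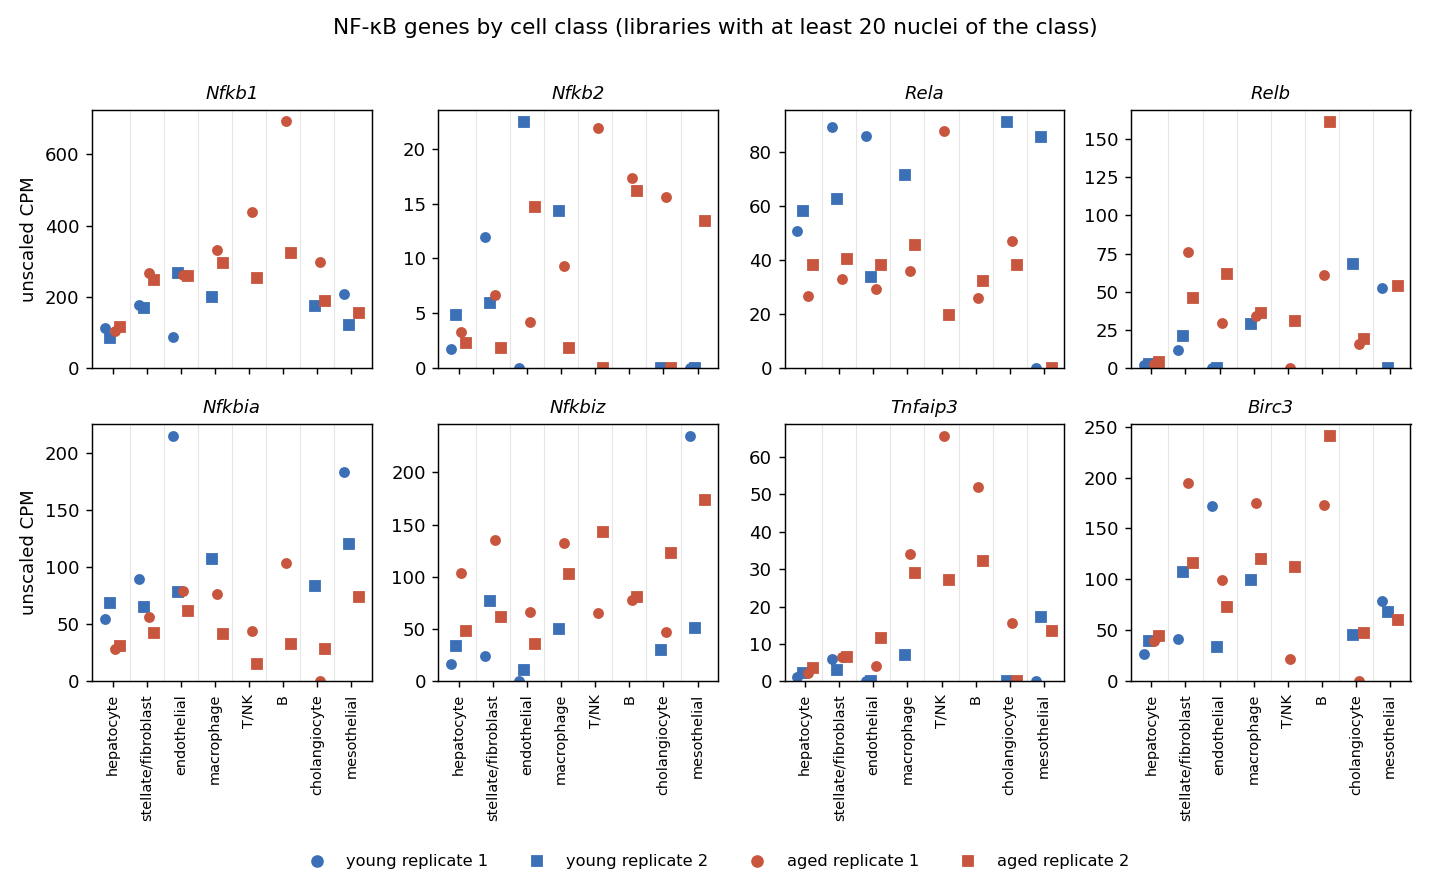
Unscaled CPM (vertical axis, linear from 0, a scale of its own in each panel) of each NF-κB gene in 8 cell classes, 1 point per library with at least 20 nuclei of the class, blue for young and red for aged. Hepatocyte-like points of Nfkb1 lie between 83.8 and 115 CPM and those of Relb between 1.75 and 3.76 CPM, and the highest single point of Nfkb1 (694), Relb (161) and Birc3 (241) is a B-like one.

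For the comparison between ages, UMIs were summed per library and class and tested with edgeR's quasi-likelihood test, with the Benjamini-Hochberg adjustment over all genes of the class and a threshold of 0.05. Values in this comparison are CPM after TMM scaling, which corrects for differences in RNA composition between libraries. In hepatocyte-like nuclei all 8 genes passed the filter on low counts and 0 of 8 passed the threshold. Among all 15713 genes tested, 5 did (0.0318%), while 20.2% had an unadjusted p under 0.05, as did 2 of the 8, Nfkbia and Nfkbiz. By DESeq2 on the same sums 1 of the 8 passed, Nfkbiz, where 963 of the 15713 genes did. Without regard to a test, both aged libraries lay above both young ones for 4 of the 8 genes (Relb, Nfkbiz, Tnfaip3 and Birc3), where 26% of all genes did so, and below for 2 (Rela and Nfkbia), where 27.3% did. The median log2 fold change, aged over young, was 0.31 over the 8 genes and -0.02 over all genes.

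Nfkbia, the IκBα gene, had 57.9 and 61.7 CPM in the young hepatocyte-like nuclei and 29.4 and 31.2 CPM in the aged ones. The groups lay apart, with little spread inside each. The log2 fold change was -0.98 with a standard error of 0.29 (edgeR adjusted p = 0.167). Over the 12 alternative fits it stayed between -1.02 and -0.89, with adjusted p between 0.0985 and 0.602. Rela, whose protein is the main partner held by IκBα, had 53.9 and 52.7 CPM in young and 27.6 and 38.5 CPM in aged nuclei. It too did not overlap between the ages, at a log2 fold change of -0.69 (SE 0.32, edgeR adjusted p = 0.275).

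Nfkbiz had 17.5 and 30.8 CPM in the young hepatocyte-like nuclei and 108 and 48.7 CPM in the aged ones. Both aged values were above both young ones, and aged replicate 1 stood far above aged replicate 2. The log2 fold change was 1.70 (SE 0.48, edgeR adjusted p = 0.159). The call moved with the processing: the adjusted p was 0.0257 by DESeq2 and 0.00157 without the filter on low counts, and edgeR gave 0.000577 without aged replicate 2 and 0.44 without aged replicate 1, where the log2 fold change was 1.03. In aged replicate 1 the 12 immediate early genes, which respond to stress and handling within minutes, summed to 415 CPM. The sums were 213 and 170 CPM in the young libraries and 120 CPM in aged replicate 2. Much of the 415 CPM came from 1 gene, Egr1. It had 231 CPM (TMM-scaled) in aged replicate 1, against 3.96 and 3.61 CPM in young libraries and 9.52 CPM in aged replicate 2. The median mitochondrial share of hepatocyte-like nuclei was also highest in aged replicate 1, 0.802% against 0.308%, 0.576% and 0.360%. The part of either in the Nfkbiz values was not tested.

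None of the other 5 genes reached an unadjusted p under 0.05 between the ages in hepatocytes. Birc3 had 28.3 and 35.4 CPM in young and 41.0 and 44.9 CPM in aged nuclei, without overlap (a log2 difference of 0.43, SE 0.30, edgeR adjusted p = 0.468). Relb (1.86 and 2.38 CPM in young, 2.54 and 3.79 CPM in aged nuclei) and Tnfaip3 (1.28 and 2.05 CPM in young, 2.42 and 3.44 CPM in aged nuclei) lay apart only narrowly, at low levels. Their log2 fold changes were 0.58 (SE 0.54, edgeR adjusted p = 0.593) for Relb and 0.81 (SE 0.57, edgeR adjusted p = 0.466) for Tnfaip3. Before TMM scaling Relb overlapped between the ages. Nfkb1, with 120 and 75.9 CPM in young and 107 and 116 CPM in aged nuclei, overlapped, as did Nfkb2, with 1.86 and 4.35 CPM in young and 3.37 and 2.29 CPM in aged nuclei.

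Markers of other cell types also moved with age in the hepatocyte-like sums. The 12 stellate/fibroblast markers summed to 472 and 319 CPM in young and 184 and 222 CPM in aged libraries, and the 13 endothelial markers to 371 and 265 against 163 and 187 CPM. Dendritic (30.4 and 29.7 against 17.6 and 17.9 CPM), B (103 and 110 against 79.7 and 99.0 CPM) and mesothelial markers (6.13 and 9.78 against 1.42 and 3.19 CPM) were lower in both aged libraries as well. T/NK markers were higher in both, with 26.5 and 37.3 CPM in young and 84.5 and 57.7 CPM in aged libraries. Macrophage markers (203, 337, 212 and 226 CPM) and cholangiocyte markers (187, 318, 258 and 207 CPM) overlapped between the ages. The part of these in the age differences of the 8 genes was not tested.

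**Figure D2:**
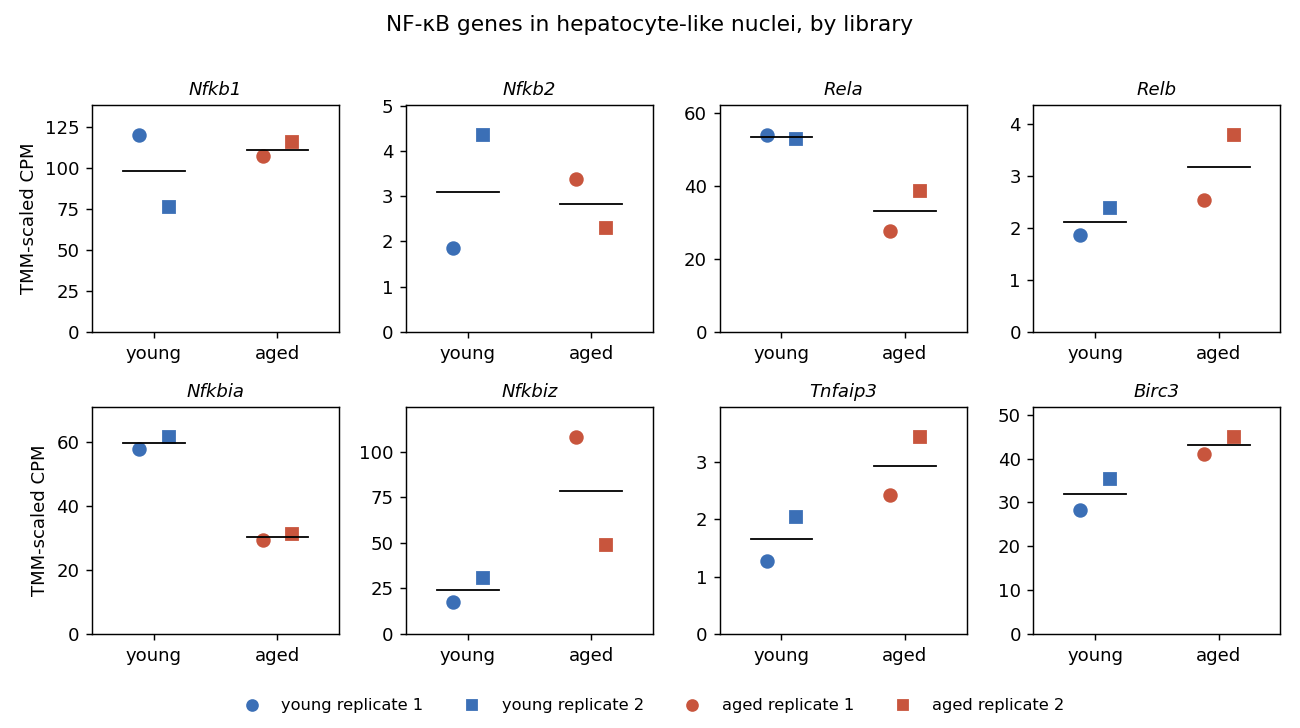
TMM-scaled CPM (vertical axis, linear from 0, a scale of its own in each panel) of the 8 genes in hepatocyte-like nuclei, 1 point per library, with the mean of the 2 libraries of each age as a line. The Nfkbia points are at 57.9 and 61.7 in young and at 29.4 and 31.2 in aged libraries, and the 2 aged Nfkbiz points lie far apart, at 108 and 48.7.

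In stellate/fibroblast-like nuclei, the vitamin A storing and matrix producing cells of the liver, 6 of the 8 genes passed the low count filter, all but Nfkb2 and Tnfaip3. None of the 6 passed the threshold, and neither did any of the 5927 genes tested (0%). Without adjustment 637 genes (10.7%) had a p under 0.05, among them Relb. DESeq2 called 16 genes and none of the 6. Both aged libraries were above both young ones for 3 of the 6 (Nfkb1, Relb and Birc3), against 22% of all genes, and below for 2 (Rela and Nfkbia), against 20.8%.

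Young stellate/fibroblast-like nuclei held 12.8 and 22.4 CPM of Relb, and aged ones 88.1 and 51.1 CPM. The ages did not overlap, and the log2 fold change was 1.79 (SE 0.56, edgeR adjusted p = 0.40). Nfkb1 had 192 and 183 CPM in young and 310 and 277 CPM in aged nuclei (a log2 difference of 0.65, SE 0.29, edgeR adjusted p = 0.482). Birc3 had 44.8 and 115 CPM in young and 226 and 130 CPM in aged nuclei, a narrow gap (a log2 difference of 1.02, SE 0.49, edgeR adjusted p = 0.50). Rela, at 96.1 and 67.2 CPM in young and 38.3 and 45.0 CPM in aged nuclei, and Nfkbia, at 96.1 and 70.4 against 65.1 and 47.0 CPM, were lower in both aged libraries, as in hepatocytes. Nfkbiz overlapped between the ages, at 25.6, 83.3, 157 and 69.5 CPM.

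Other measures moved with age in the same nuclei. The class was made of 2 clusters: 121 and 450 of the young nuclei, but 90 and 380 of the aged ones, were in the first, and 49 and 16 young against 184 and 650 aged nuclei in the second. T/NK markers summed to 29.7 and 53.4 CPM in young and 126 and 101 CPM in aged stellate/fibroblast-like nuclei, with 2, 5, 4 and 9 of the 11 markers detected. Macrophage markers summed to 595 and 475 CPM in young and 238 and 272 CPM in aged nuclei, with 8, 13, 7 and 14 of the 15 detected. B markers overlapped between the ages, at 59.5, 101, 126 and 64.7 CPM. So did the 12 hepatocyte transcripts, at 6576 and 15938 CPM in young and 7987 and 8747 CPM in aged libraries. Nuclei with at least 50% of the median hepatocyte level of these transcripts made up 21.2% and 82.2% of the young and 16.1% and 49.9% of the aged class. The part of these in the Relb, Nfkb1 and Birc3 values was not tested. From the class sums alone, a change in the mix of the 2 clusters and a change inside either cannot be told apart. Without nuclei rich in hepatocyte RNA the Relb log2 fold change was 2.13.

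In endothelial-like nuclei 3 of the 8 genes passed the filter, Nfkb1, Nfkbia and Birc3, and none of them passed the threshold, nor did any of 4010 genes (0%). Without adjustment 365 genes (9.1%) had a p under 0.05, none of the 3 among them. All 3 overlapped between the ages, where 23.7% of all genes were higher and 19.4% lower in both aged libraries, with edgeR adjusted p from 0.772 to 0.897. Young replicate 1 rested on 25 endothelial-like nuclei. Relb, which did not pass the filter, had 0 UMIs in both young libraries, of 23305 and 89427 UMIs, and 7 and 21 UMIs in the aged ones, of 240421 and 340851. Nfkbiz had 0 and 1 UMIs in the young and 16 and 12 UMIs in the aged libraries. B markers summed to 129 and 134 CPM in young and 266 and 267 CPM in aged endothelial-like nuclei. The endothelial markers were also higher in both aged libraries (13559 and 9874 against 18667 and 16212 CPM), and hepatocyte markers (10899 and 16192 against 6751 and 10048 CPM) and cholangiocyte markers (129 and 537 against 87.3 and 114 CPM) were lower in both. The part of these in the Relb and Nfkbiz counts was not tested.

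Whether age acted differently outside hepatocytes was tested as an interaction of class and age, with the library as a block. None of the 6 genes tested passed for stellate/fibroblast-like against hepatocyte-like nuclei, where 3 of 5866 genes did (0.0511%), and none of the 3 for endothelial-like nuclei, where 147 of 4005 did (3.67%). Before adjustment p was under 0.05 for none of these genes, against 11.4% and 13.2% of all genes in the 2 comparisons. The interaction of Relb was 1.20 on the log2 scale (SE 0.72, edgeR adjusted p = 0.624). That of Nfkbiz was -0.72 (SE 0.36, edgeR adjusted p = 0.537). A p above the threshold does not show that the classes behave alike.

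**Figure D3:**
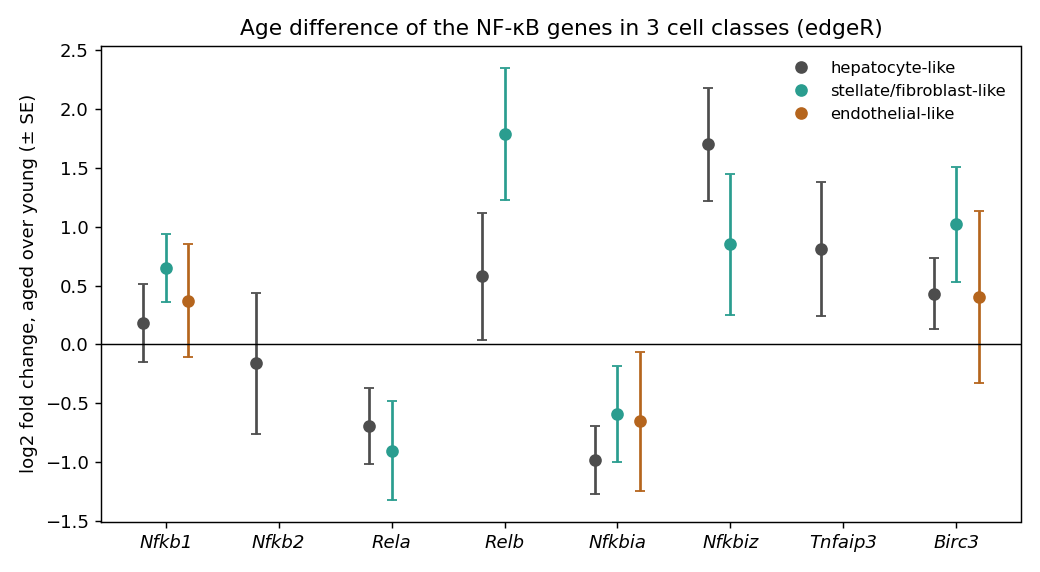
Log2 fold change, aged over young (vertical axis), of each NF-κB gene in hepatocyte-, stellate/fibroblast- and endothelial-like nuclei by edgeR, with bars of 1 standard error, for genes that passed the low count filter in the class. Nfkbia and Rela are below 0 in each class where they were tested, Relb in stellate/fibroblast-like nuclei is at 1.79 and Nfkbiz in hepatocyte-like nuclei at 1.70, and none passed the adjusted threshold.

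Hepatocytes differ along the axis of the lobule, from the portal vein (periportal) to the central vein (pericentral). Within each library, hepatocyte-like nuclei were ranked by the mean log level of 13 pericentral genes less that of 12 periportal genes, and the upper and the lower of 3 equal parts were compared, with the library as a block. None of the 8 genes was used for the ranking. Of the 8, 2 passed, Nfkbia, higher in the pericentral nuclei, and Birc3, higher in the periportal ones. Of all 14179 genes tested, 21.4% passed, 10.8% as higher and 10.7% as lower in pericentral nuclei, so the count for the 8 is near the background.

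By zone, Nfkbia had 63.3 and 71.1 CPM in pericentral and 56.8 and 51.6 CPM in periportal nuclei of the young libraries. In the aged libraries it had 34.3 and 37.6 CPM in pericentral and 25.6 and 25.4 CPM in periportal nuclei. It was higher in the pericentral nuclei of 4 of 4 libraries, and the aged values of either zone lay below the young values of both. The log2 difference was 0.42 (SE 0.09, edgeR adjusted p = 0.0064), and the adjusted p stayed between 0.000144 and 0.0436 over 8 alternative fits. Birc3 went the other way, with 21.4, 30.3, 36.4 and 39.0 CPM in pericentral and 35.1, 34.3, 50.5 and 49.7 CPM in periportal nuclei, the young libraries first. It was lower in the pericentral nuclei of 4 of 4 libraries, by -0.40 on the log2 scale (SE 0.09, edgeR adjusted p = 0.0113). Without aged replicate 1 the adjusted p of Birc3 was 0.0624. Nfkb1 was also lower in pericentral nuclei of 4 of 4 libraries, by a log2 difference of -0.17 (SE 0.08, edgeR adjusted p = 0.154).

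Mitochondrial transcripts differed between the zones as well, with 3159 to 6469 CPM in pericentral and 8105 to 11120 CPM in periportal nuclei. Macrophage markers summed to 155 to 284 CPM in pericentral and 202 to 378 CPM in periportal nuclei and were lower in the pericentral nuclei of each library. T/NK markers went the other way, with 35.7 to 165 CPM in pericentral and 11 to 27.7 CPM in periportal nuclei. Mean UMIs per nucleus were higher in the pericentral nuclei of each library, for example 5621 against 4365 in young replicate 1. The part of these in the 2 zone differences was not tested.

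The difference between the zones did not change detectably with age for any of the 8 genes, against 26 of 14179 genes that did (0.183%). At an unadjusted p under 0.05 there was 1 of the 8, Nfkbiz, and 6.43% of all genes. Nfkbiz had 20.4 and 35.2 CPM in pericentral and 16.4 and 26.5 CPM in periportal nuclei of the young libraries, and 93.5 and 49.1 against 127 and 50.8 CPM in the aged ones. The young libraries were thus higher at the pericentral end and the aged ones at the periportal end, in aged replicate 2 by very little. The interaction was -0.62 (SE 0.21, edgeR adjusted p = 0.526), with an adjusted p of 0.022 without aged replicate 2.

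**Figure D4:**
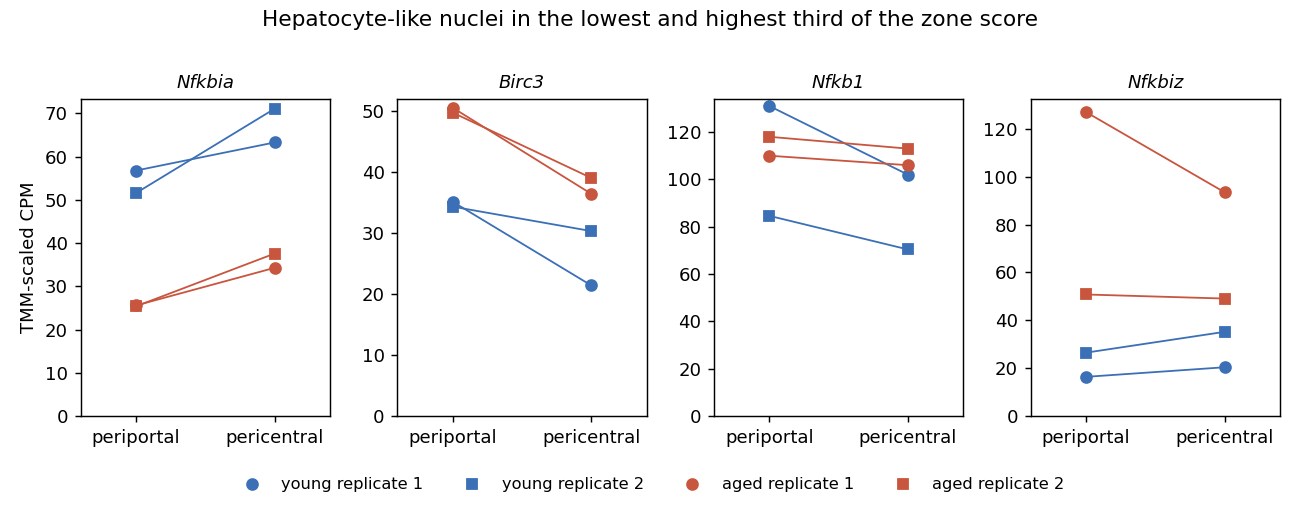
TMM-scaled CPM (vertical axis, linear from 0) of 4 of the genes in the periportal and pericentral parts of hepatocyte-like nuclei, with a line for each library. All 4 lines rise for Nfkbia and fall for Birc3 and Nfkb1 towards the pericentral end, and the aged Nfkbia lines lie below the young ones.

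The rest of the pathway was read from gene lists around the 8 genes. Between ages in hepatocyte-like nuclei, 0 of 19 tested receptor and adaptor genes and 0 of 11 kinase genes passed the threshold. So did 0 of 5 other subunit and inhibitor genes, 0 of 16 other regulators and 0 of 20 target genes. Of all genes tested, 0.0318% passed. Before adjustment, p was under 0.05 for 20.2% of all genes. In the lists it was so for 1 higher and 2 lower genes among the receptors and adaptors and 1 and 1 among the kinases. It was so for 0 and 0 among the subunits, 0 and 1 among the other regulators and 1 and 1 among the targets. Each list was below the share of all genes. Map3k14, which encodes the kinase that starts the non-canonical branch, had 7.56 and 9.92 CPM in young and 25.9 and 36.6 CPM in aged hepatocyte-like nuclei (a log2 difference of 1.83, SE 0.36, edgeR adjusted p = 0.132). In stellate/fibroblast-like nuclei Map3k14 had 19.2 and 25.6 CPM in young and 76.6 and 48.0 CPM in aged libraries (edgeR adjusted p = 0.426). Of the same branch, Relb was also higher in both aged libraries of that class. Nfkb2, with 2 UMIs in each library there, overlapped between the ages and was not tested. The aged values of Map3k14 lay above the young ones in both classes. Of the kinase genes, 7 of 11 were below 0 in hepatocyte-like and 7 of 9 in stellate/fibroblast-like nuclei. The median log2 fold change was -0.22 and -0.38 over the kinase genes and -0.02 and -0.03 over all genes. The share of all genes below 0 was not counted, so these counts are a description only. Ikbkg, a subunit of the kinase complex, had 161 and 143 CPM in young and 71.2 and 103 CPM in aged hepatocyte-like nuclei (edgeR adjusted p = 0.234), and Chuk had 199 and 141 against 91.9 and 104 CPM in stellate/fibroblast-like nuclei (edgeR adjusted p = 0.482). The other regulators are brakes for the most part, but not all of them are. One of them, Rbck1, is part of a complex that builds linear ubiquitin chains and is not read here as a brake. Rbck1 had 66.8 and 48.2 CPM in young and 19.8 and 26.3 CPM in aged hepatocyte-like nuclei (edgeR adjusted p = 0.15). Rnf11 had 89.7 and 86.5 against 34.5 and 56.2 CPM in stellate/fibroblast-like nuclei (edgeR adjusted p = 0.498). Tnip1, a brake that works with the Tnfaip3 product, had 6.41 and 32.0 CPM in young and 169 and 101 CPM in aged stellate/fibroblast-like nuclei (a log2 difference of 2.53, SE 0.59, edgeR adjusted p = 0.381).

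Among the target genes Cxcl1, a chemokine that draws neutrophils, had 8.26 and 15.5 CPM in young and 131 and 29.5 CPM in aged hepatocyte-like nuclei (a log2 difference of 2.75, edgeR adjusted p = 0.15). Like Nfkbiz, it was highest in aged replicate 1. Egr1, an immediate early gene, had 3.96 and 3.61 CPM in young and 231 and 9.52 CPM in aged nuclei, so its difference rests on that library too. Dusp1, an immediate early phosphatase gene, was lower in both aged libraries, with 114 and 56.2 against 14.2 and 11.2 CPM (a log2 difference of -2.74, SE 0.43, edgeR adjusted p = 0.117). Vcam1, an adhesion molecule gene, had 6.52 and 7.95 CPM in young and 2.54 and 1.13 CPM in aged nuclei (edgeR adjusted p = 0.16).

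Along the lobule, 10.8% of all genes passed as higher and 10.7% as lower in pericentral nuclei, and the lists are read against that. Of 17 tested target genes 5 were lower and 1 was higher. The lower ones were Cxcl1 (log2 difference -1.44, SE 0.08, edgeR adjusted p = 3.07e-06) and 4 genes of acute phase proteins, Hp (-1.25), Orm1 (-1.18), Saa2 (-0.99) and Saa1 (-0.50), and the higher one was the survival gene Bcl2l1 (0.27). Saa1, Saa2 and Orm1 have close paralogs, and their counts are uncertain where reads could be shared. Of 11 kinase genes, 2 were higher in pericentral nuclei, Ikbkg (0.33) and Chuk (0.27), which encode subunits of the kinase complex that acts on IκBα. Of 17 receptor and adaptor genes 2 were lower, Ticam1 (-0.86) and Il1rap (-0.39). Among 16 other regulators 1 was higher, Tax1bp1 (0.34), and 1 lower, Nlrc5 (-0.27). For kinases, receptors and adaptors, and other regulators the share that passed was below the 21.4% of all genes. Of 11 immediate early genes 4 were lower in pericentral nuclei, Fos, Egr1, Ier2 and Btg2.

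The pattern of each gene over the 12 sums of 3 classes and 4 libraries was set beside that of 10199 genes with a mean of at least 10 CPM. The nearest patterns, by Pearson's r of log2(unscaled CPM + 1), belonged to Lrrc1 (0.961) for Nfkb1, Arf4 (0.958) for Rela, Kif3c (0.98) for Relb, mt-Cytb (0.951) for Nfkbia, Agbl5 (0.98) for Nfkbiz, Zfp52 (0.938) for Tnfaip3, Thra (0.909) for Birc3 and Sinhcaf (0.897) for Nfkb2. None of the 8 was nearest to another of the 8. Nfkb2 and Tnfaip3 had a mean below 10 CPM and could not be chosen. With so many genes compared, no conclusion about a shared pattern is drawn from this. The 12 points share libraries and depth, so these values describe likeness in this data set only.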

How the data were processed

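The authors' tool was Cell Ranger 7.1.0 with the mm10 build (source: the submitters' processing notes). For all 4 libraries the deposited values are raw UMI counts per gene and barcode. Barcodes with at least 500 UMIs, 300 genes and at most 5% mitochondrial UMIs were kept. Scrublet's automatic threshold marked 0 doublets, so the highest scores were removed at 0.8% per 1000 barcodes (3927 barcodes), leaving 33262 of 43013. Nuclei were clustered in 2 steps with scanpy 1.11.5 (Leiden, resolution 1) and classes named from marker lists. Clusters at 60% or more of the hepatocyte marker level stayed unnamed, a threshold set after the data were seen. They fell unevenly over the libraries and were left out of the main age tests. The one nearest to stellate/fibroblast held 9 and 838 young and 9 and 27 aged nuclei. Of those nearest to endothelial, one held 20 and 558 young and 9 and 163 aged nuclei. The others went the other way, with 8 and 19 young against 208 and 409 aged, and 6 and 12 against 271 and 232. Another cluster, of 343 nuclei (16 and 126 young, 44 and 157 aged), stayed unnamed at 36.8%. It matched stellate/fibroblast best, on 10 markers, but its 10 top genes held more markers of another class. The stellate/fibroblast-like class does not include it, nor does the alternative that names the clusters above the threshold. Class membership depended on the clustering: neighbour graphs of other kinds were tried and dropped for reproducibility and class sizes, after results of a first clustering had been seen. Counts were summed per library and class and tested with edgeR 4.0.16 in R 4.3.3 (filterByExpr, TMM, quasi-likelihood), which was tested on simulated data: at the dispersion estimated from these libraries, 28 of 96 genes changed 4-fold and 92 of 96 changed 16-fold were called in hepatocyte-like nuclei, and at a dispersion of 0.05 for every gene, 97 and 98 of 98. DESeq2 1.42.0 was an alternative. The NF-κB genes and lists were chosen with earlier results of these data known. All 8 genes are named. Of the other lists, up to 5 called genes in each direction were eligible, or the 2 with the smallest p where none was called. The sources do not say that replicate numbers pair the libraries.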

Additional observations from a re-analysis of the deposited data

How the results depend on the processing

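Of 406 refits of single NF-κB genes over 16 settings, 376 kept direction and side of the threshold, 25 changed sign, 4 newly passed and 1 no longer passed. None of the 25 passed in either fit, and the cause was not tested. In the age comparisons the sign changed without young replicate 2 for Birc3 in endothelial-like nuclei (-0.72) and, in hepatocyte-like nuclei, for Nfkb1 (-0.07) and Nfkb2 (0.63, and 0.15 without aged replicate 2). For endothelial-like against hepatocyte-like nuclei it changed for Birc3 (-0.27 without aged replicate 1, -1.41 without young replicate 2), Nfkb1 (0.25 without the low count filter, 0.05 with RLE size factors, 1.91 without young replicate 2) and Nfkbia (-0.49 without young replicate 2). For stellate/fibroblast-like nuclei it changed for Nfkbia (-0.02 without young replicate 2) and Rela (0.06 without young replicate 1). For zone by age it changed for Birc3 (0.03 at 1000 UMIs, 0.01 without aged replicate 1, 0.29 without young replicate 2), Rela (0.09 and 0.12 without the same libraries, 0.05 with zones of all nuclei), Relb (-0.40 without young replicate 2) and Tnfaip3 (0.05 at 1000 UMIs, 0.06 without aged replicate 1, 0.57 without young replicate 2). For the zone itself it changed for Nfkb2 (0.02 without young replicate 2), and without aged replicate 1 for Nfkbiz (0.16) and Rela (0.01). With 1 library left out, these ranged over -0.72 to 1.42 (endothelial Birc3), -0.07 to 0.56 and -0.62 to 0.63 (hepatocyte Nfkb1 and Nfkb2), -1.41 to 1.24, -0.42 to 1.91 and -0.49 to 1.03 (endothelial interactions of Birc3, Nfkb1 and Nfkbia), -0.02 to 0.71 and -0.61 to 0.06 (stellate/fibroblast interactions of Nfkbia and Rela), -0.26 to 0.29, -0.34 to 0.12, -0.40 to 0.94 and -0.58 to 0.57 (zone by age of Birc3, Rela, Relb and Tnfaip3), and -0.52 to 0.02, -0.17 to 0.16 and -0.15 to 0.01 (zone of Nfkb2, Nfkbiz and Rela).

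Counts of called genes moved far more. In hepatocyte-like nuclei the 5 genes became 2 at 1% mitochondrial UMIs, 963 by DESeq2, 1882 without the low count filter and 1 to 1082 with 1 library left out. Of the 8 NF-κB genes, 1 was called (Nfkbiz) by DESeq2, without the filter and without aged replicate 2. In stellate/fibroblast-like nuclei the 0 genes became 16 by DESeq2, 175 without the filter, 1 with another clustering seed and 12 to 162 with 1 library left out. In endothelial-like nuclei they became 69 without the filter and 0 to 107 with 1 library left out. The 147 genes of the endothelial interaction became 75 with RLE size factors and 0 to 179 with 1 library left out. The 3 of the stellate/fibroblast interaction became 307 without the filter, 134 at 1000 UMIs, 1 with RLE size factors and 0 to 207 with 1 library left out. The 26 genes of zone by age became 229 without the filter, 15 with zones of all nuclei and 0 to 287 with 1 library left out, where 1 NF-κB gene was called without aged replicate 2. The 3040 zone genes became 2002 to 2642 with 1 library left out, and 1 of the 2 NF-κB genes was still called without aged replicate 1. Some fits left 1 library in an age group, which is then assumed to vary like the others.

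With the replicate block, 11, 12 and 1 genes were called in hepatocyte-, stellate/fibroblast- and endothelial-like nuclei, and no NF-κB gene. The correlation of same-numbered libraries was -0.21, -0.05 and 0.03. With the crossed pairing as replicate block, added after seeing the data, 4, 2 and 0 genes were called. Naming the mixed clusters and the other clustering seed were also added after seeing the data, and both left 0 NF-κB genes called. Few nuclei outside hepatocytes, 25 in the smallest tested sum, limit what those classes can show.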
